A study of Bos taurus with 8 samples.

Results

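The rumen is the large fermentation chamber of the cattle forestomach. Its inner surface is a keratinised stratified squamous epithelium, in which keratin filaments, desmosomes and cornified envelope proteins give a tough barrier against abrasive feed. Where the rumen holds fermenting microbes, the same epithelium takes up the short-chain fatty acids they make and turns part of them into ketone bodies. The wall beneath it is smooth muscle. These functions are background and were not examined here. Here 1 rumen RNA-Seq library, of 8 tissue libraries in the series, was compared with the 7 others: whole testes, frontal cortex, uterus intercaruncular, mammary/parenchyma, abomasum, ileum and nucleated blood cells. The abomasum is the glandular stomach of cattle and the ileum the last part of the small intestine. Every tissue was represented by 1 library, so no difference below has a replicate check and no test was made. No treatment was given in the labels. The methylation part of the study used tissues of 1 family of Hereford cattle, and its tissue list gave the rumen as that of a male fetus, the testes as those of an adult male, the uterus and blood as those of adult females, and the other 4 tissues as those of juvenile females. The study describes the RNA as coming from the same 8 tissues and from a similar collection, without naming the animal behind each RNA library, so tissue, age, sex and animal cannot be told apart in any comparison below.

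Levels were read as FPKM, that is, sequenced fragments scaled to the length of the transcript and to the mapped reads of the library. This scaling does not remove differences between libraries in makeup or in the way level moves with span, for which values are given below. A locus is a region of UMD3.1, the cattle genome build of the table, to which the authors' pipeline gave a level. Of 36801 loci, 24886 carried a transcript identifier, 22808 of these spanned at least 300 bases, and 22793 remained after leaving out 15 whose estimate in a pair with rumen had failed or had too much data. Of those 15, 2 lay on the mitochondrial chromosome and were listed at 0 in rumen. Differences are given on log2(FPKM + 1), which understates the change of low loci. The values of short loci gave a scaled depth of 15484000 reads in rumen, the highest of the 8, against 6022000 in mammary/parenchyma, the lowest. Such a depth rests on an assumed fragment length and is not the total number of reads of the library. On a transcript of 1000 bases, 3 reads then came to 0.265 FPKM in rumen and to 0.681 FPKM in mammary/parenchyma, and a level under that value cannot be told from 0. The table named loci by transcript identifiers only, and 0 of the 26547 identifiers stood in the RefSeq gene table at hand. Gene symbols were therefore not assigned, marker genes of the rumen epithelium, muscle and other cell types were not analysed here, and the tissue label was not checked against them. Loci are named by their position. In 7609 loci (33.4%) the listed span was the same as that of another locus, and the level of such a locus is uncertain because reads may have been divided between overlapping transcripts.

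Rumen expressed few loci, and the most abundant of them reached very high levels. At 1 FPKM or more, 12024 of 22793 loci (52.8%) were detected in rumen, and only nucleated blood cells had fewer, at 11178. At 1000 FPKM or more, however, rumen had 166 loci, the most of the 8 tissues, where the 7 others had 47 to 115. The 10 most abundant loci made up 17.0% of the summed FPKM in rumen, less than in abomasum (20.9%) and more than in the 6 others (4.89% to 12.6%). The rumen figure includes the locus of a shared span listed at 53850 FPKM that is described below. The median detected locus stood at 12 FPKM in rumen, inside the range of the others, which ran from 11.0 to 13.9 FPKM. Rumen was the highest tissue at 2188 loci and the lowest at 1931, both within the ranges of the 7 others, 923 to 5925 and 530 to 3344. Few loci, 94, reached 1 FPKM in rumen alone, and only mammary/parenchyma had fewer, at 80, while the other 6 had 112 to 1444.

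Across the 17411 loci of at least 1 FPKM in some tissue, rumen was most like mammary/parenchyma, with Pearson's r of 0.82 on log2(FPKM + 1). Abomasum (0.801), uterus (0.796) and ileum (0.789) followed closely. Frontal cortex (0.686), nucleated blood cells (0.679) and whole testes (0.526) were less like it. The mean of the 7 was 0.728. These are correlations across loci, which are not independent replicates, so the close values of the first 4 tissues give no firm order. The counts of loci at least 2-fold apart in FPKM + 1, with 1 FPKM or more on the higher side, followed much the same order. Against ileum, rumen was higher at 2252 loci (9.88% of all analysed) and lower at 2916 (12.8%). Against mammary/parenchyma it was higher at 2646 (11.6%) and lower at 2505 (11.0%). Against abomasum it was higher at 2505 (11.0%) and lower at 2716 (11.9%). These were the 3 tissues with the fewest differences. Against uterus, rumen was higher at 2861 loci (12.6%) and lower at 2980 (13.1%). Against frontal cortex it was higher at 3233 (14.2%) and lower at 3654 (16.0%). Blood was the tissue over which rumen was higher most often, at 3970 loci (17.4%), with 3080 (13.5%) lower. Against whole testes rumen was lower far more often than higher, at 5993 loci (26.3%) against 3295 (14.5%). At the 8907 loci detected in all 8 tissues, the median difference of rumen from each other tissue lay between -0.08 and 0.17.

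Rumen exceeded every other tissue at least 2-fold at 587 loci, 2.58% of those analysed. This was the fourth-highest count, after whole testes (3155), frontal cortex (1337) and nucleated blood cells (869), and it was above that of abomasum (358), uterus (332), ileum (239) and mammary/parenchyma (192). Loci under every other tissue were far fewer, at 86 or 0.377%. Blood had 963 such loci, frontal cortex 314 and whole testes 281, and the other 4 tissues had 3 to 40. By a second measure, rumen was at least 4-fold higher than the median of the 7 others at 875 loci (3.84%) and at least 4-fold lower at 353 (1.55%). Of these, 451 were also above all 7 and 53 were also below all 7. In a bulk sample, fewer cells of a type and less RNA per cell cannot be told apart.

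**Figure D1:**
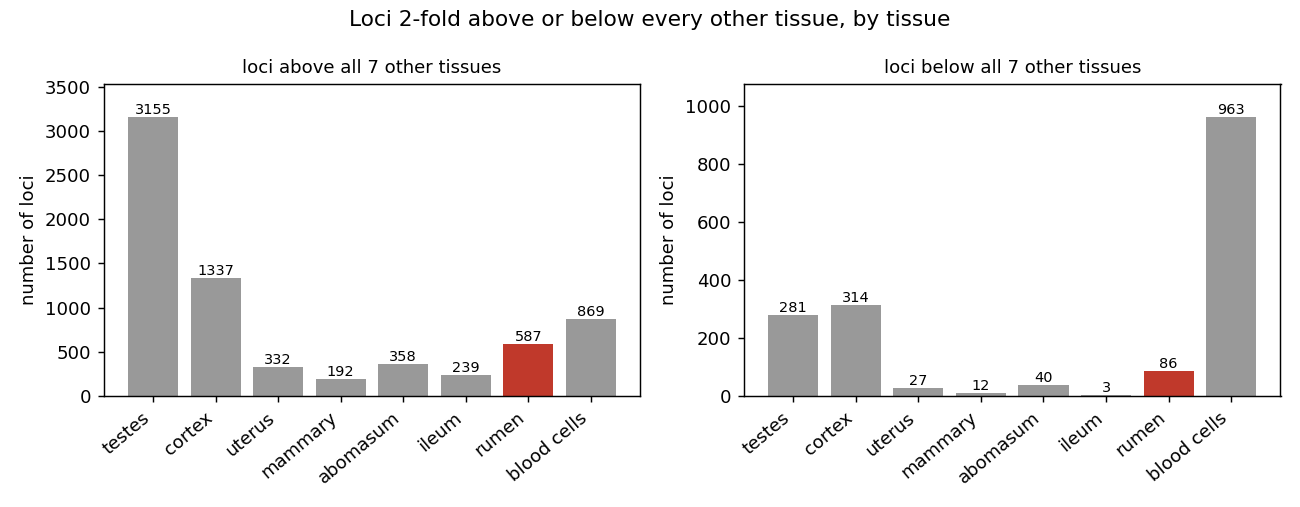
Number of loci (vertical axis) at which each tissue was at least 2-fold above all 7 others (left) or below all 7 others (right) in FPKM + 1, with 1 library per tissue and rumen in red. Rumen had 587 loci above and 86 below, the fourth-highest count on both sides.

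The 587 loci were mostly abundant in rumen. Their median level was 108 FPKM in rumen, where the medians of the same loci in the 7 other tissues ran from 2.56 FPKM in blood to 11.2 FPKM in abomasum. In rumen, 526 of them reached 10 FPKM, 303 reached 100 FPKM and 106 reached 1000 FPKM. The median difference from the next tissue was 1.62 on log2(FPKM + 1). It was at least 4-fold at 227 loci, 8-fold at 127, 32-fold at 44 and 128-fold at 17. These counts include the loci of a shared span, listed at 0 in the 7 others, for which no fold is given below. The loci were short, with a median span of 15632 bases against 28199 bases for all loci detected in rumen, and 192 of them (32.7%) had a shared span, close to the share over all loci. At 21 loci the 7 others were all listed at 0, and 14 of these 21 had a shared span.

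**Figure D2:**
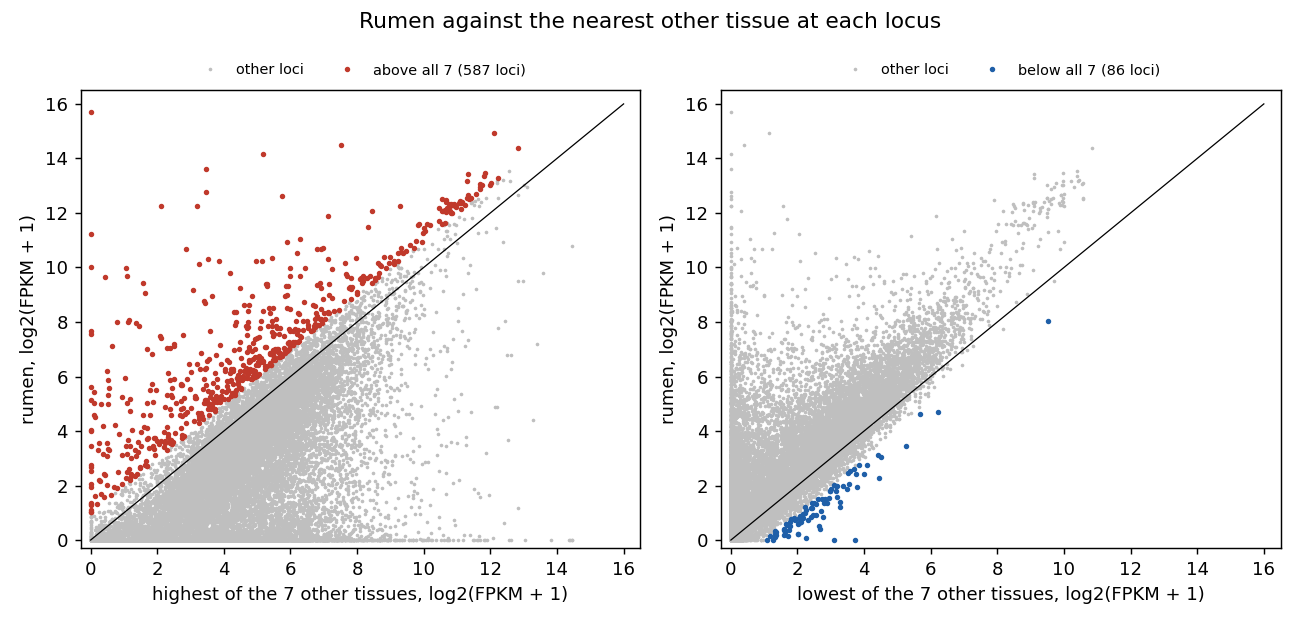
Level in rumen (vertical axis) against the highest (left) or the lowest (right) of the 7 other tissues at each of the 22793 loci, all as log2(FPKM + 1), with the line of equal level. The 587 loci above all 7 (red) reach down to 1.05 FPKM and up to 53850 FPKM in rumen, and the 86 loci below all 7 (blue) lie mostly at low levels, with a median of 1.05 FPKM in rumen.

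The tissue that came closest to rumen at these loci was most often the abomasum or the mammary gland. Leaving aside the 21 loci listed at 0 elsewhere, abomasum came next at 158 of 566 (27.9%) and mammary/parenchyma at 103 (18.2%). Over all detected loci, abomasum was the highest of the 7 at 11.9% and mammary/parenchyma at 6.26%. Whole testes showed the opposite, being next at 10.1% of the 566 loci but highest of the 7 at 32.6% of all. Ileum came next at 72 loci, blood at 71, frontal cortex at 65 and uterus at 40. Loci that rumen held in common with 1 other tissue, each at least 2-fold above the remaining 6, were fewer. Frontal cortex shared 102 with rumen (0.448%), abomasum 93 (0.408%), whole testes 80 (0.351%) and ileum 69 (0.303%). Mammary/parenchyma shared 53 (0.233%), uterus 30 (0.132%) and blood 28 (0.123%). Of the 28 pairs of tissues, rumen with frontal cortex came sixth by this count and rumen with abomasum seventh.

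The most distinct loci of rumen stood far above a low level, or a level of 0, in the other tissues. Among loci with a span of their own, the furthest apart lay on chromosome 14 at 79520528 to 79583443. It stood at 12524 FPKM in rumen, 10 in frontal cortex, 1.89 in uterus, 0.602 in abomasum and 0.373 in blood, and it was listed at 0 in testes, mammary/parenchyma and ileum. Rumen was 10.15 above frontal cortex on log2(FPKM + 1). None of the 8 other loci within 250 kb of it was above all 7 tissues, and the highest of them stood at 65.5 FPKM in rumen. As background, RefSeq for ARS-UCD2.0 places 5 carbonic anhydrase genes on chromosome 14, among them CA1, CA2 and CA3. Carbonic anhydrases supply the bicarbonate and protons that rumen epithelium exchanges as it absorbs fatty acids. Whether this locus is one of them was not determined.

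The next such locus, on chromosome 13 at 63085483 to 63095523, stood at 4833 FPKM in rumen and at 0 to 3.31 FPKM in the 7 others, with frontal cortex again the next tissue. It was alone in its neighbourhood: none of the 15 other loci within 250 kb reached 1 FPKM in rumen. Chromosome 13 carries 13 genes of the BPI fold family in RefSeq, secreted lipid-binding proteins of mucosal surfaces, and whether this locus belongs to them was not determined. A locus on chromosome 1 at 62162636 to 62171172 stood at 1648 FPKM in rumen, 6.25 in abomasum, 0.876 in frontal cortex and 0.212 in uterus. In testes, mammary/parenchyma, ileum and blood it was at 0. A locus on chromosome 11 at 46569074 to 46573763 stood at 819 FPKM in rumen and at 1.15 FPKM or less in every other tissue. On chromosome 26 at 14460222 to 14463796, a further locus had 538 FPKM in rumen and at most 2.12 FPKM elsewhere, in frontal cortex. At these 5 loci rumen ranged from 538 to 12524 FPKM, and the highest level of any other tissue was the one of frontal cortex on chromosome 14. The other 5 of the 10 furthest loci with a span of their own lay in clusters on chromosomes 5, 24 and 13 described below.

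The locus with the highest level of all in rumen has to be read with care. Transcript ENSBTAT00000014222, on chromosome 26 at 21055939 to 21108833, was listed at 53850 FPKM in rumen and at 0 in all 7 other tissues. Its span held 6 loci, 5 of them with the same identifier, and the 5 others were at 0 to 0.39 FPKM in rumen and at up to 29.7 FPKM elsewhere. The table does not say which bases of the span the reads covered. The same holds for ENSBTAT00000054195, on chromosome 25 at 1596104 to 1666088, with 2402 FPKM in rumen and 0 in the others, where 2 further loci of the same span stood at 17.2 and 19.6 FPKM in rumen. A locus of a shared span on chromosome 3 at 55819055 to 55942687 was likewise listed at 1040 FPKM in rumen and at 0 in the others. No fold is given for these 3 loci. A pair of loci with a shared span were detected elsewhere too. On chromosome 19 at 14602391 to 14641748, rumen had 18328 FPKM and mammary/parenchyma, the next tissue, 35.3. On chromosome 5 at 101493874 to 101545695, rumen had 1010 FPKM and no other tissue more than 1.1.

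Of the 5 most abundant loci in rumen, 3 have a shared span and 2 do not. One of the latter, on chromosome 3 at 17163356 to 17165408, stood at 31149 FPKM in rumen, 4386 in blood, 74.8 in abomasum, 24.7 in frontal cortex, 21.8 in testes, 20.7 in mammary/parenchyma, 4.88 in uterus and 1.19 in ileum. It was high in rumen and in blood and low in the other 6 tissues. Within 250 kb of it, 2 of 9 further loci were above all 7 tissues in rumen, the highest at 5827 FPKM. RefSeq places 14 S100A genes on chromosome 3, calcium-binding proteins of which several are known from both squamous epithelium and white blood cells, and whether this locus is one of them was not determined. The other, on chromosome 10 at 16324341 to 16326492, was high in every tissue, at 21580 FPKM in rumen and 1819 FPKM in testes to 7353 FPKM in blood in the others.

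The loci above all 7 were not spread evenly over the chromosomes. Chromosome 24 had the highest share, 21 of 314 loci (6.69%), followed by chromosome 14 with 3.92%. Chromosome 20 had the lowest, 2 of 337 (0.593%), and the X chromosome had 1.22%. Merged into positions where they overlapped, the loci above all 7 took 573 of 18570 positions (3.09%), and 127 of the 573 (22.2%) had an adjoining position that was also above all 7. The same share was 22.3% in blood, 24.2% in frontal cortex and 38.0% in testes, which have more such positions, and 9.68% to 16.4% in the 4 tissues that have fewer.

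A cluster was defined as at least 4 such positions with gaps of at most 250 kb. Rumen had 14 clusters on 11 chromosomes, which held 70 of the 587 loci (11.9%). Testes had 164 clusters, frontal cortex 45 and blood 28, while abomasum and ileum had 2 each, mammary/parenchyma 1 and uterus 0. Most rumen clusters were small: 9 of the 14 had only 4 positions. Without the loci of a shared span there were 5 clusters, which lay within the 5 with the most positions, described next. On chromosome 5 only the stretch from 27558902 to 27910834 was then left, with 4 positions.

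The largest cluster lay on chromosome 24 at 62248829 to 62639258, where 8 of 10 loci were above all 7 tissues, all with a span of their own. In order along the chromosome, the 8 stood at 182, 91.7, 32.0, 688, 800, 5.39, 32.8 and 137 FPKM in rumen. No other tissue exceeded 25.1 FPKM at any of them. Abomasum came next at the first locus, at 25.1 FPKM, and uterus at the following 2, at 16.6 and 1.14 FPKM. The strongest difference was at 62427625 to 62451599, with 800 FPKM in rumen, 0.352 in frontal cortex, 0.197 in testes, 0.192 in blood, 0.136 in uterus, 0.0513 in abomasum and 0 in mammary/parenchyma and ileum. The locus at 62364701 to 62384881 followed, with 688 FPKM in rumen and 1.98 FPKM in blood, the next tissue. The 2 loci of the window that were not above all 7 stood under 1 FPKM in every tissue. RefSeq names 7 serpin B genes on chromosome 24, intracellular protease inhibitors of which several are made by keratinocytes, and whether the loci of this cluster are among them was not determined.

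The second cluster, on chromosome 5 at 27089712 to 27910834, was a mixed region in which some loci were very high in rumen and many others were near 0 there. Of its 31 loci, 7 were above all 7 tissues, at 3.83 to 6942 FPKM in rumen, and 20 of the other 24 stood under 1 FPKM in rumen. Many of these 20 were also under 1 FPKM in most other tissues, though 1 of them reached 353 FPKM in mammary/parenchyma. The highest, at 27558902 to 27564151, had 6942 FPKM in rumen, 10 in abomasum, 7.83 in blood, 4.7 in frontal cortex, 0.669 in uterus, 0.198 in mammary/parenchyma and 0 in testes and ileum. The adjoining locus at 27577800 to 27599708 had 4840 FPKM in rumen and 8.06 FPKM in abomasum, the next tissue. At both loci, abomasum, blood and frontal cortex followed rumen in that order at a low level. Another locus, at 27336268 to 27547631, had 4258 FPKM in rumen and 348 FPKM in mammary/parenchyma, but its span was shared with 8 others. Those 8 are among the 20 and were listed at 0 in rumen and at up to 2.38 FPKM elsewhere. Some loci of the window were low in rumen and high in other tissues. At 27212092 to 27221179, rumen had 4.54 FPKM, near testes (5.92) and above frontal cortex (0.851) and blood (0.432), while abomasum had 1620, ileum 720, mammary/parenchyma 273 and uterus 84.5. At 27171925 to 27175575, rumen had 1.92 FPKM, between 0.25 in blood and 0.75 in frontal cortex below it and 4.49 in testes to 813 in abomasum above it. The choice of these 2 loci was made with their values known.

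The fourth cluster by size, on chromosome 19 at 42313515 to 42628743, also held loci that were very high in rumen. Here 6 of 13 loci were above all 7 tissues, at 1.48 to 23113 FPKM in rumen, and 4 of the other 7 stood under 1 FPKM in rumen. The highest, at 42472430 to 42490861, had 23113 FPKM in rumen, 182 in mammary/parenchyma, 25.9 in abomasum, 16.4 in frontal cortex, 3.74 in blood and under 1 FPKM in testes, uterus and ileum, with a shared span. The locus at 42430195 to 42463325, with a span of its own, had 6224 FPKM in rumen and 52.3 FPKM in mammary/parenchyma. Mammary gland was therefore the next tissue at both of the abundant loci. Of the loci that were not above all 7, the one at 42356580 to 42361460 was high in rumen and mammary gland alone, at 1356 and 789 FPKM, with no other tissue over 1.43 FPKM. The one at 42366660 to 42370493 stood at 45.7 FPKM in rumen, between the higher levels of abomasum (1347), mammary/parenchyma (1108), ileum (851) and uterus (65.4) and the lower ones of testes (3.22), frontal cortex (2.31) and blood (0.59). The locus at 42430195 and these 2 were picked with their values known. As background, RefSeq has 28 keratin genes on chromosome 5, among them the type II keratins KRT4, KRT5 and KRT6A, and 29 on chromosome 19, among them the type I keratins KRT10, KRT13 and KRT14. Type I and type II keratins pair to form the filaments of epithelial cells, with other pairs in squamous than in simple epithelium. Whether the loci of these clusters are keratin genes was not determined.

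**Figure D3:**
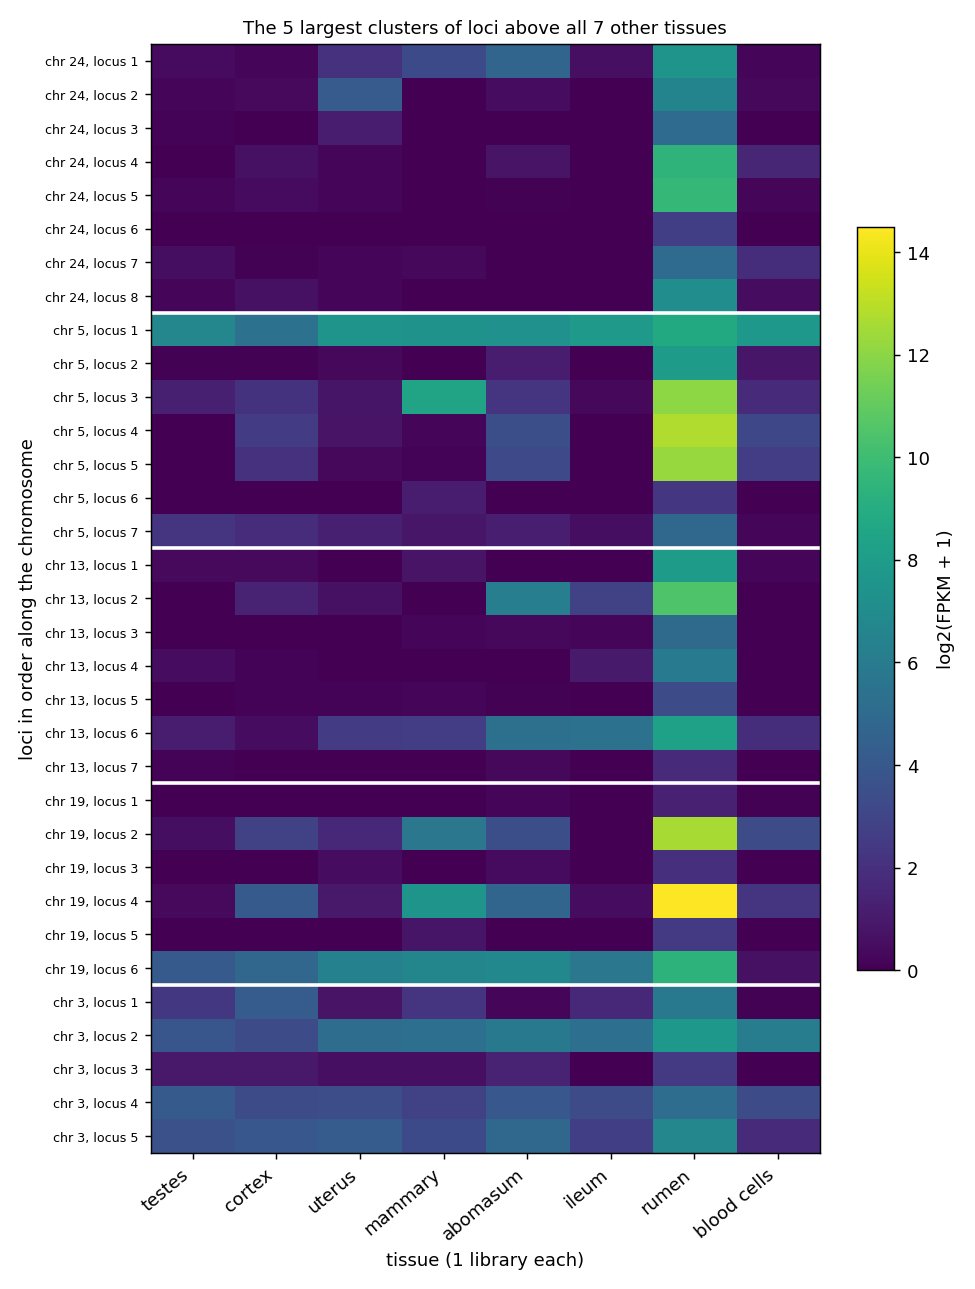
Levels, as log2(FPKM + 1) on the colour scale, of the loci above all 7 tissues in the 5 largest clusters (rows, in order along each chromosome, white lines between clusters) in the 8 tissues (columns, 1 library each). The rumen column is the brightest in every row because the loci were chosen that way. The chromosome 5 and 19 clusters hold the highest levels, up to 6942 and 23113 FPKM.

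On chromosome 13 at 43507344 to 44154582, 7 of 13 loci were above all 7 tissues, at 2.25 to 1473 FPKM in rumen. The highest, at 43654330 to 43669961, had 1473 FPKM in rumen, 72.4 in abomasum, 6.15 in ileum, 1.64 in frontal cortex, 0.559 in uterus and 0 in testes, mammary/parenchyma and blood. The locus at 43507344 to 43508178 had 256 FPKM in rumen and 0.722 FPKM or less in the others. At 43947621 to 44116989, a shared span, rumen had 318 FPKM, ileum 40.7 and abomasum 39.3, and no other tissue more than 5.2. RefSeq names AKR1C3 and AKR1C4, aldo-keto reductases that reduce ketones and steroids, on chromosome 13, and whether these loci belong to that family was not determined. The cluster on chromosome 3 at 15566673 to 15732005 was of another kind. Its 5 loci, of 14, stood at 4.43 to 212 FPKM in rumen, and the other tissues had up to 68.9 FPKM. The highest, at 15619491 to 15649119, had 212 FPKM in rumen, 68.9 in blood, 58.2 in abomasum, 38.6 in mammary/parenchyma, 38.0 in ileum, 35.6 in uterus, 13.8 in testes and 9.19 in cortex, so it was expressed in every tissue, but its span was shared with another locus and its level is uncertain.

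Among the clusters of 4 positions, that on chromosome 5 at 26136686 to 26252315 was low, with 2.0 to 63.8 FPKM in rumen at 4 of 10 loci. Its highest locus, at 26161169 to 26175163, had 63.8 FPKM in rumen, 30.4 in ileum, 10.2 in mammary/parenchyma and 7.43 in testes, with under 1 FPKM in the other 4 tissues and a shared span. RefSeq has 9 HOXC genes on chromosome 5, transcription factors that set position along the body axis, and whether these loci are among them was not determined. A second cluster on chromosome 24, at 25977002 to 26448151, was chosen after its values were seen. There 5 of 7 loci were above all 7 tissues, at 3.62 to 339 FPKM in rumen. The locus at 25977002 to 26009901 had 229 FPKM in rumen, 1.74 in mammary/parenchyma and at most 0.107 FPKM in the other 6. The locus at 26339762 to 26379372 had 339 FPKM in rumen, 34.8 in abomasum, 13.3 in uterus, 10.9 in ileum and 9.5 in mammary/parenchyma, and under 1 FPKM in testes, frontal cortex and blood. RefSeq places all 7 desmoglein and desmocollin genes, the cadherins of the desmosome, on chromosome 24, and whether these loci are among them was not determined. The 2 clusters together held 13 of the 21 loci above all 7 on chromosome 24. In the 7 remaining clusters, on chromosomes 6, 7, 22, 23, 25 and 29, the 28 loci ranged from 7.76 to 10611 FPKM in rumen. Each held 4 of them, from 9.3% of the loci of the window on chromosome 23 to 57.1% on chromosome 6. The locus at 10611 FPKM, on chromosome 25 with a shared span, stood at 1337 to 3598 FPKM in the 7 other tissues.

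A further pattern set rumen apart at the most abundant loci of all tissues. For each tissue, loci were grouped by their median level in the 7 others, so that the tissue's own level did not enter the grouping. Rumen lay 0.34 below that median at the 3637 loci of 1 to 5 FPKM and 0.09 below it at the 5180 loci of 5 to 20 FPKM, as medians on log2(FPKM + 1). It lay 0.23 above at the 3183 loci of 20 to 100 FPKM, 0.53 above at the 442 loci of 100 to 500 FPKM and 1.79 above at the 109 loci of at least 500 FPKM. At those 109 loci rumen was the highest tissue 87 times (79.8%). In the same highest group the 7 others lay between -1.25 in testes and 0.63 in blood. The 109 loci had a median of 4417 FPKM in rumen, against 713 in testes to 1816 in blood, and held 41.1% of the summed FPKM in rumen against 13.7% to 40.1% in the others. They were short loci, with a median span of 4803 bases, and 57 of them were among the 587. After scaling the libraries to the same median the value at these loci was 1.74.

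**Figure D4:**
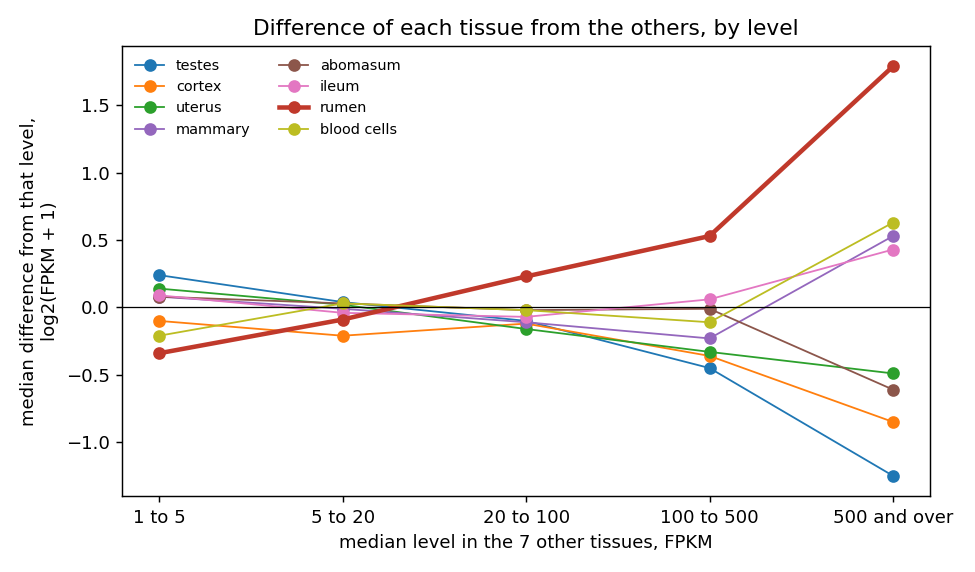
Median difference of each tissue from the median of its 7 others (vertical axis, log2(FPKM + 1)) by the level of that median (horizontal axis, groups of FPKM), 1 library per tissue. The line of rumen climbs from -0.34 at 1 to 5 FPKM to 1.79 at 500 FPKM and over, where the others lie between -1.25 and 0.63.

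Span moved with this difference. At the loci with at least 1 FPKM in all 8 tissues, the median difference of rumen from the median of the 7 was 0.59 at the 790 loci under 5000 bases and 0.21 at the 2693 loci of 5000 to 20000 bases. It was 0.0, -0.17 and -0.1 in the 3 groups of longer loci. Within a narrow range of level, 20 to 100 FPKM, it still went from 0.61 at the 329 loci under 5000 bases to 0.02 at the 162 loci of at least 150000 bases. The loci below all 7 were at the long end, with a median span of 56205 bases. The part of span in the counts above was not tested.

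Loci low in rumen were highest in blood more often than loci in general. The 86 loci below all 7 had a median of 1.05 FPKM in rumen and reached up to 259 FPKM there. Of them, 42 were under 1 FPKM and 3 were listed at 0. The median difference from the next tissue was -1.29, and at 7 loci it was at least 4-fold. In 41 loci (47.7%) the span was shared, a larger share than over all loci. Blood was the highest tissue at 26 of the 86 (30.2%), testes at 17 (19.8%), frontal cortex at 14 (16.3%), abomasum at 13 (15.1%) and uterus at 11 (12.8%). Over all detected loci, the highest of the 7 was blood at 16.7%, testes at 32.6% and frontal cortex at 18.3%. Of the 353 loci at least 4-fold lower than the median, 191 were under 1 FPKM in rumen, 56 were listed at 0, and blood was the highest tissue at 111 (31.4%). The count below all 7 also rested on single tissues, being 162 without frontal cortex, 137 without blood and 132 without abomasum.

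The 4 loci furthest below all 7 had a shared span. Transcript ENSBTAT00000063330, on chromosome 16 at 81285131 to 81458030, was listed at 0 in rumen and at 12.1 FPKM in uterus to 166 FPKM in frontal cortex in the others, but the other 7 loci of the same span had 0 to 34.4 FPKM in rumen. ENSBTAT00000063301, on chromosome 18 at 13498107 to 13796836, was listed at 0 in rumen and at 7.61 FPKM in testes to 117 FPKM in abomasum. The loci on chromosome 8 at 45089567 to 45440196 and on chromosome 13 at 66398105 to 66730589 had 0.34 and 0.0452 FPKM in rumen and at least 5.39 and 3.79 FPKM elsewhere. The fifth, on chromosome 22 at 6789385 to 6942330, had a span of its own. It stood at 3.9 FPKM in rumen, 20.7 in frontal cortex, 38.8 in mammary/parenchyma, 50.2 in testes, 56.7 in ileum, 61.9 in abomasum, 90.5 in uterus and 112 in blood, so rumen was clear of every other tissue. Of loci with a span of their own, that on chromosome 19 at 40655135 to 40663822 ranked 3 by distance, with 1.3 FPKM in rumen, 8.59 in abomasum, 8.83 in testes, 16.7 in mammary/parenchyma, 20.2 in blood, 55.7 in uterus, 86.1 in ileum and 113 in frontal cortex.

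The loci below all 7 formed no cluster, but the 353 loci lower than the median formed 3. On chromosome 21 at 71453612 to 71596570, 6 of 8 loci were lower, at 0 to 28.8 FPKM in rumen. At 71594102 to 71596570 rumen had 28.8 FPKM, where ileum had 4715, abomasum 4313, mammary/parenchyma 1661, uterus 894, blood 671, testes 76.7 and frontal cortex 3.21. At 71488886 to 71496119 rumen had 10.1 FPKM and ileum 2472, abomasum 1292, blood 541, mammary/parenchyma 139, uterus 27.0, testes 5.46 and frontal cortex 0.52. At both loci rumen, testes and frontal cortex were the 3 lowest tissues, and ileum and abomasum, the other digestive tissues, were the highest. On chromosome 3 at 8794461 to 9296830, 4 of 10 loci were lower in rumen, at 0.0717 to 2.81 FPKM. The highest in rumen, at 9022904 to 9053379, had 2.81 FPKM there against 387 in blood, 59.9 in ileum, 17.8 in abomasum, 14.4 in mammary/parenchyma, 3.9 in uterus, 2.47 in testes and 0.248 in frontal cortex. Blood was the highest tissue at all 4 loci and ileum came next. RefSeq has 5 genes of the SLAM family, receptors of lymphocytes, on chromosome 3, and whether these loci are among them was not determined.

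On chromosome 23 at 28330539 to 28920742, 4 of 19 loci were lower than the median. The most abundant, at 28468651 to 28506317, had 891 FPKM in rumen, 669 in frontal cortex, 404 in testes, 1710 in uterus, 5159 in abomasum, 6414 in mammary/parenchyma, 9155 in ileum and 12343 in blood. The locus at 28918428 to 28920742 had 7.73 FPKM in rumen, 462 in ileum and 1336 in blood, and between 3.74 and 56.8 FPKM in the other 5. Here too rumen, testes and frontal cortex were the 3 lowest, and blood and ileum were highest. Those 3 tissues were the lowest at 10 of the 14 lower loci in the 3 clusters. The place of rumen among them follows largely from the choice of the loci, and that of testes and frontal cortex does not. RefSeq has 14 BOLA genes, the major histocompatibility genes of cattle, on chromosome 23, and whether these loci are among them was not determined. Another locus with these tissues on top, at 28330539 to 28426385, had 52.6 FPKM in rumen against 689 in blood, while the last, at 28733596 to 28754742, was highest in frontal cortex (114 FPKM) and was listed at 0 in rumen, with a shared span.

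**Figure D5:**
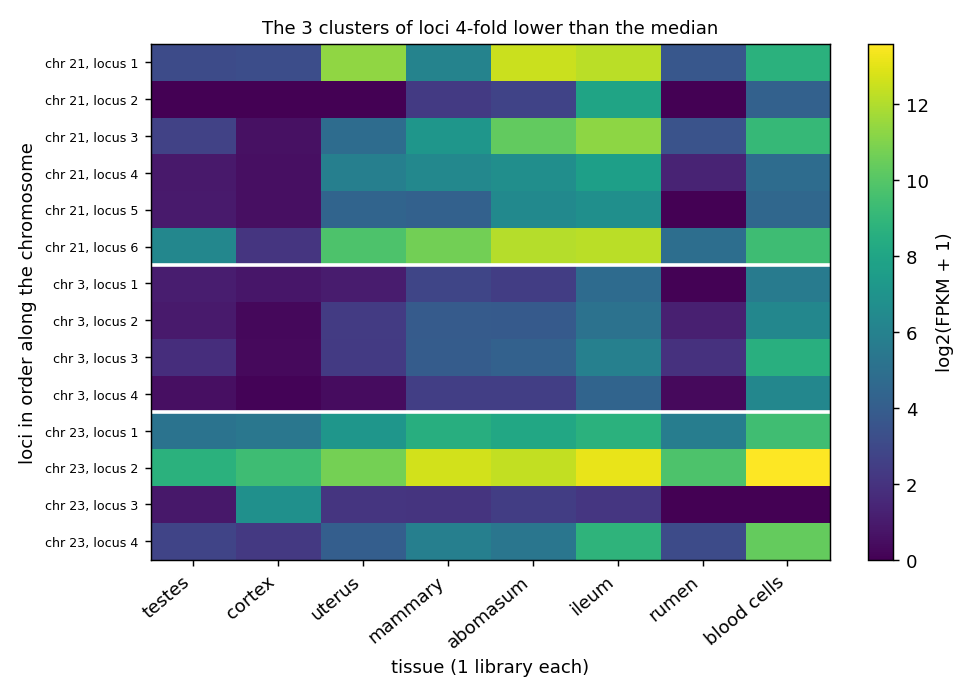
Levels, as log2(FPKM + 1) on the colour scale, of the loci at least 4-fold lower in rumen than the median of the 7 others in the 3 clusters of such loci (rows, in order along each chromosome, white lines between clusters) in the 8 tissues (columns, 1 library each). Rumen, which is low here by the choice of the loci, testes and frontal cortex are the darkest columns in most rows. Ileum, abomasum or blood is brightest in all rows but locus 3 of chromosome 23, with up to 12343 FPKM on that chromosome.

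Assembled loci without a transcript identifier also included some that were highest in rumen. Of 9373 such loci of at least 300 bases, 393 (4.19%) were at least 2-fold above all 7 other tissues in rumen, and 19 were below all 7. Among the 22793 loci with an identifier, the share above all 7 was 2.58%. The 393 were short and moderately expressed, with a median span of 748 bases and a median of 9.36 FPKM in rumen, though the highest reached 10450 FPKM. The 7 others were listed at 0 at 107 of them, and 37 lay inside the windows of the 14 clusters. How many of all unnamed loci lay in those windows was not counted. In testes 36.3% of the unnamed loci were above all others, in frontal cortex 11.8%, in blood 6.51% and in abomasum 6.39%. Rumen had the fifth-highest count of the 8.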

How the data were processed

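RNA was extracted with TRIZOL from 8 cattle tissues, 1 library each, and sequenced as single reads. The authors aligned reads to UMD3.1 with TopHat2 2.0.13 (version from the submitters' processing notes) and ran Cufflinks. The deposited table gives FPKM per locus for each pair of tissues; its columns of fold change, test statistic, p and q are the authors' own comparisons and were not used. Each tissue's FPKM was read from the pairs (0 values differed between pairs) and compared as log2(FPKM + 1) in Python 3.11.15 with pandas 2.3.3. Starts are 1-based. Scaled depths rest on whole read counts recovered from loci of 88 to 130 bases under a fragment length of 200 ± 80 bases, with 95.5% of rumen values whole within 0.03. Named loci were the 10 furthest above and 5 furthest below, also among loci of their own span, the 5 most abundant, and those of highest level in the largest clusters. Loci, lists and thresholds were chosen with earlier results of these data known. Counting was checked on simulated data. Reads shared between copies of gene families may be misassigned.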

Additional observations from a re-analysis of the deposited data

Results flagged for a closer look

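Very short loci without an identifier held reads in rumen. Among loci of 88 to 130 bases, which the comparisons leave out, 178 had a level above 0 in rumen and 169 of them came to at least 3 reads, the number taken here as the limit that a count of 0 allows. Abomasum had 519 such loci above 0 and the other 6 libraries had 36 to 58. Values at this length depend on the fragment lengths that the authors' pipeline assumed.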

How the results depend on the processing

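The counts depended on their thresholds. Settings not listed here moved no count by over 1.5 times, but dropping the minimum of 1 FPKM could not move any, and the single loci, chosen as the furthest apart, are no check of direction. Loci above all 7 (587) became 227 at 4-fold and 980 with unnamed loci. Loci below all 7 (86) became 198 with a pseudocount of 0.1, 41 at a minimum of 5 FPKM, 7 at 4-fold, 45 without shared spans, and 95 to 162 when 1 tissue was left out. Loci higher than the median (875) became 2527 at 2-fold and 1393 with unnamed loci. Loci lower than the median (353) became 1010 with a pseudocount of 0.1, 1809 at 2-fold and 219 without shared spans. The 14 clusters became 8 with gaps of 100 kb, 25 with gaps of 500 kb, 31 at 3 positions, 32 with unnamed loci and 5 without shared spans. Leaving out shared spans was chosen after seeing the data. By loci above all 7, rumen kept rank 4 of 8 in each of the settings in which all tissues were ranked, that is, in all but those without 1 tissue. Neither dropping the minimum nor changing the fold from the median could move this rank. No paired analysis was possible because there were no replicates. Depth limits levels near 0.265 FPKM in rumen and 0.681 FPKM in mammary/parenchyma on 1000 bases, by counting error only.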
